A study of Mus musculus with 4 samples.

Results

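The genes described here make, convert and carry prostaglandins: *Ptgs1*, *Ptgs2*, *Ptges*, *Ptges3*, *Ptgds*, *Ptgr1*, *Ptgis* and *Slco2a1*. They were listed by name, with no threshold on their levels, and are 8 of the 16892 genes in the count matrix. They were followed through 8880 single cells of 34 annotated populations in 7 broad cell types. The cells came from the caput, corpus and cauda epididymis and the vas deferens of FVB/NJ male mice that were 10 to 12 weeks old, for which the labels name no treatment and no altered allele. Each region was dissected from the same 4 mice, and its 8 pieces were pooled, cleared of sperm, dissociated with collagenase and trypsin and made into 1 library. Each region is therefore 1 sample, animals cannot be told apart within it, and no test between regions was possible.

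Prostaglandins are short-lived lipid signals made from arachidonic acid that phospholipases free from membranes. A cyclooxygenase, encoded by *Ptgs1* or *Ptgs2*, turns arachidonic acid into an unstable intermediate, and terminal synthases then make the E, D, F or I forms. Transporters carry prostaglandins across membranes, receptors on nearby cells sense them, and dehydrogenases and reductases inactivate them. In the male tract, prostaglandins are known as constituents of seminal fluid and as agents that act on smooth muscle, and principal cells are the secretory epithelial cells that line the lumen of the duct.

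In principal cells, transcripts of *Ptgs2*, *Ptges*, *Ptgr1* and *Slco2a1* had their highest levels in the vas deferens library, between 4.07 and 10.8 times those of the next library. *Ptgds* followed another course, with its highest level in the cauda and few transcripts in vas deferens principal cells. *Ptgis* was a transcript of stromal cells, and *Ptges3* was found at similar levels in every cell type. The upstream sequences of the first 4 genes are shown because these genes share the same end of the duct as the place of their highest level. They are the 250 bases before the RefSeq transcription start on GRCm38.p6, printed on the strand of the gene, and the capitals mark matches on either strand to the motifs searched. These were TATAAA (the TATA box), CGTCA (a core of the cyclic AMP response element), GGGCGG (the GC box), AGAACA (a core of androgen response elements), CACGTG (an E-box) and CCAAT (the CCAAT box), none of which contains another.
Ptgs2: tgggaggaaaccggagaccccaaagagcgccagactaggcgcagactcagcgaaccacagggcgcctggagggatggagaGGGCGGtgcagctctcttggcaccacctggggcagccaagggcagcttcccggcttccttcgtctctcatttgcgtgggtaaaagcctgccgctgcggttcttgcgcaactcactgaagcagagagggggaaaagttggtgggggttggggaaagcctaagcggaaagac
Ptges: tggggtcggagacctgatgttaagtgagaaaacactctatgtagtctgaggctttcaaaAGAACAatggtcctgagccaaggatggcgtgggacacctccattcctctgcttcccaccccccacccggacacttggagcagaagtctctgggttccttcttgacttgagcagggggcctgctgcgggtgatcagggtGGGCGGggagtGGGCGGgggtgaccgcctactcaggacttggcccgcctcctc
Ptgr1: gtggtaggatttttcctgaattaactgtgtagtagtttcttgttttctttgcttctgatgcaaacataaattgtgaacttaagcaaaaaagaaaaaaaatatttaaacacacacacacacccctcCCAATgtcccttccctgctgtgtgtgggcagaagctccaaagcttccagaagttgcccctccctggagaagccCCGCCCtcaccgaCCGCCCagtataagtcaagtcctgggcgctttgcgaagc
Slco2a1: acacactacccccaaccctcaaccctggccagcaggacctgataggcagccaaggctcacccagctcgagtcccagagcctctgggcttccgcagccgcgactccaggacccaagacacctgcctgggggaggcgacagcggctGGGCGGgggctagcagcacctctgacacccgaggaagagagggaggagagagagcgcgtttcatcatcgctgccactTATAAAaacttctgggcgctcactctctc

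The genes lie on GRCm38 at chr1:150100031-150108227 (*Ptgs2*), chr2:30889471-30929863 (*Ptges*), chr4:58965439-58987119 (*Ptgr1*), chr9:102988712-103096002 (*Slco2a1*), chr2:36230426-36252272 (*Ptgs1*), chr10:128058954-128077272 (*Ptges3*), chr2:25466709-25470046 (*Ptgds*) and chr2:167191805-167240604 (*Ptgis*). The printed stretches lie at chr1:150099781-150100030 on the plus strand for *Ptgs2*, chr2:30903298-30903547 on the minus strand for *Ptges*, chr4:58987079-58987328 on the minus strand for *Ptgr1* and chr9:103008237-103008486 on the plus strand for *Slco2a1*. GGGCGG was matched in all 4, and in 32.7% of the 32851 promoters of the same length. TATAAA was matched in the *Slco2a1* sequence alone among the 4 and in 12.4% of all promoters. *Ptges* held 1 match to AGAACA (16.1% of all promoters), and *Ptgr1* held 1 match to CCAAT (33.8%). CGTCA (17.8%) and CACGTG (6.02%) were matched within these 250 bases in none of the 7 members with an entry. Bases past the annotated start were not searched, so a motif there, or near another start of the same gene, would be missed. *Ptgis* has no entry in that table. A match of letters is a description and was not tested as a binding site.

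The libraries held 1433 cells for the caput, 2325 for the corpus, 1616 for the cauda and 3506 for the vas deferens, with 4408989 to 10744928 unique molecular identifiers (UMIs) each. Principal cells numbered 736, 929, 931 and 1360 in that order, and their median depth was 844, 658, 889 and 1286.5 UMIs. Levels are given as UMIs of a gene per 1000000 UMIs of a group of cells (UPM), which removes the difference in depth from levels but not from shares of cells. UMIs are tags of the 3′ ends of transcripts, so the levels are not scaled by gene length. The deposited names of cell types were checked against 39 marker genes, of which 34 had their highest level in the type they mark. The exceptions were *Cdh1*, *Epcam*, *Krt8* and *Krt18*, listed for principal cells and highest in basal cells, and *Itga6*, listed for basal cells and highest in endothelial cells. Barcodes found in more than 1 library numbered 43, which covers 86 cells, and leaving those cells out left each ratio of vas deferens to epididymis in principal cells within its interval; the other ratios were not rerun without them.

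Among the cyclooxygenases, *Ptgs1* (COX-1, the form known for steady expression) had 28.4 UPM in caput principal cells, 125 in corpus cells, 401 in cauda cells and 403 in vas deferens cells. *Ptgs2* (COX-2, the form known to be inducible) had 12.8 UPM in caput cells, 60.6 in corpus cells, 442 in cauda cells and 2834 in vas deferens cells. Both forms were thus lowest in the caput. Both rose from the corpus to the cauda, and only *Ptgs2* rose from the cauda to the vas deferens. From the cauda to the vas deferens the ratio of levels was 1.004 for *Ptgs1* (95% interval for counting error 0.920 to 1.10) and 6.41 for *Ptgs2* (5.96 to 6.90). Another scaling, by the median of gene ratios, shifts the median gene by 0.28 on the log2 scale between these libraries, and gave 0.827 for *Ptgs1* and 5.29 for *Ptgs2*. Of the cyclooxygenase UMIs of principal cells, *Ptgs2* made up 31.0% in the caput (20.5 to 43.1), 32.7% in the corpus (27.1 to 38.7), 52.4% in cauda cells (49.8 to 55.0) and 87.6% in vas deferens cells (87.0 to 88.1). Caput and corpus did not differ beyond counting error, while the share rose beyond it from corpus to cauda and from cauda to vas deferens.

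*Ptges*, the inducible microsomal synthase of prostaglandin E, had 3.48 UPM in caput principal cells, 144 in corpus cells, 395 in cauda cells and 1611 in vas deferens cells. Its ratio of vas deferens to cauda was 4.07 (3.77 to 4.41). *Ptges3*, the cytosolic synthase of prostaglandin E that is also the Hsp90 co-chaperone p23, had 131 UPM in caput cells, 115 in corpus cells, 87.4 in cauda cells and 168 in vas deferens cells. The levels of *Ptges3* spanned a narrower range than those of *Ptges*. The vas deferens had 1.28 times the level of the caput, the next highest library (1.10 to 1.49), and the cauda was lowest. The E synthase transcripts with a steep course along the duct were therefore those of *Ptges*.

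*Ptgds* encodes the lipocalin-type synthase of prostaglandin D, a secreted protein that also binds lipophilic molecules. It had 1427 UPM in caput principal cells, 4037 in corpus cells, 12008 in cauda cells and 240 in vas deferens cells. The cauda was 2.97 times the corpus (2.89 to 3.06), and the vas deferens was 0.0200 times the cauda (0.0188 to 0.0212). *Ptgis*, the synthase of prostacyclin, had 2 UMIs in caput principal cells, 7 in corpus cells, 4 in cauda cells and 6 in vas deferens cells, too few to order the regions. Principal cells held 96.6% of all *Ptgds* UMIs, and the 931 principal cells of the cauda alone held 66.8%.

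*Ptgr1* encodes a reductase that takes the oxidized products of prostaglandins and of leukotriene B further toward inactive forms. It had 1.16 UPM in caput principal cells (2 UMIs), 4.93 in corpus cells (7 UMIs), 61.5 in cauda cells and 662 in vas deferens cells. *Slco2a1*, the transporter that takes up prostaglandins across the plasma membrane, had 12.8 UPM in caput cells, 9.87 in corpus cells, 79.3 in cauda cells and 622 in vas deferens cells. For both genes the caput and corpus were low and their intervals overlapped, the cauda was higher, and the vas deferens was highest. The ratio of vas deferens to cauda was 10.8 for *Ptgr1* (8.87 to 13.2) and 7.84 for *Slco2a1* (6.61 to 9.37). Vas deferens principal cells held 90.1% of all *Ptgr1* UMIs, 66.4% of those of *Slco2a1*, 65.2% of those of *Ptges* and 56.8% of those of *Ptgs2*.

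**Figure D1:**
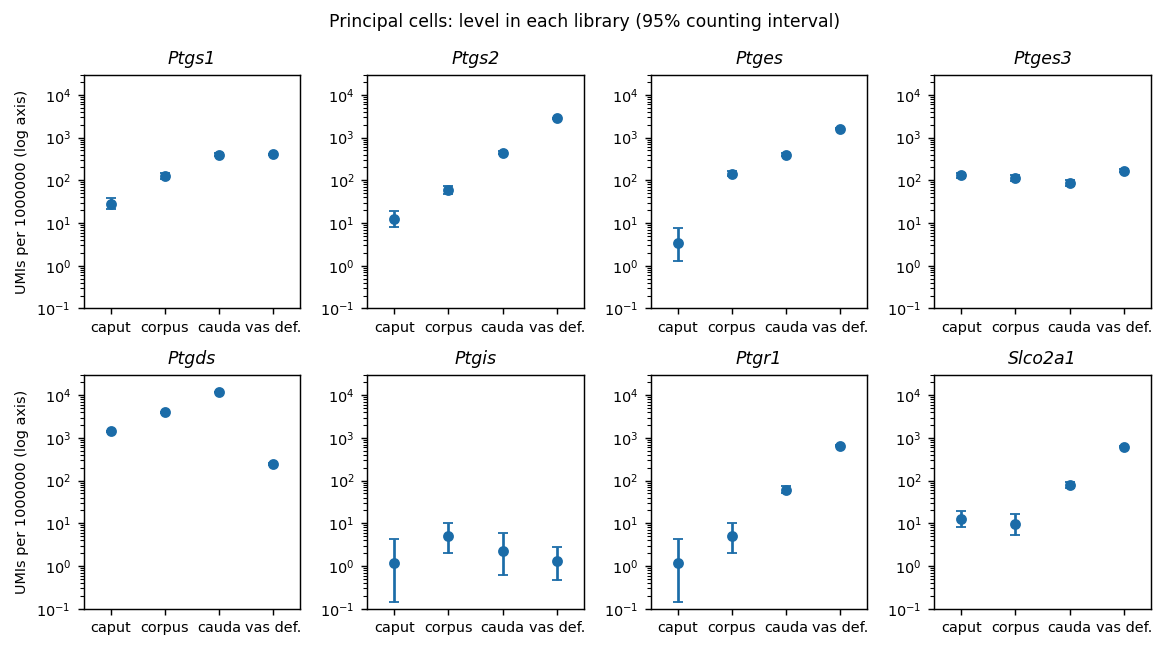
Level of each of the 8 genes in principal cells of the 4 libraries, in UPM on a log axis, with 95% Poisson intervals for counting error; each point is 1 library. *Ptgs2*, *Ptges*, *Ptgr1* and *Slco2a1* are highest in the vas deferens, *Ptgds* peaks at 12008 UPM in the cauda, and *Ptgs1* levels off from the cauda (401) to the vas deferens (403).

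Restriction to a library was taken to mean 20 or more UMIs in its principal cells together with a level 4 or more times as high as in each of the other libraries. By this rule 4 of the 8 genes, *Ptgs2*, *Ptges*, *Ptgr1* and *Slco2a1*, were restricted to the vas deferens and none to another library; 7 of the 8 had enough UMIs to pass, and *Ptgis* did not. Over all genes with enough UMIs, 1.45% were restricted to the vas deferens (143 of 9854) and 6.12% to any library (603 of 9854). The study had singled out prostaglandin genes on these same libraries, so the count is not independent evidence of a direction. *Ptges* lay close to the threshold and was below 4 with another scaling, at 3.36 with median-of-ratios factors.

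Marker genes of stromal and basal cells stayed low in principal cells. The 6 stromal markers summed to between 57.1 and 87.3 UPM in principal cells of the 4 libraries, against 3701 to 15008 UPM in stromal cells, and 1 of the 6 was at 0 in the caput. The 4 basal markers summed to between 29.9 and 82.5 UPM, with the lowest sum in the vas deferens, against 2939 to 3977 UPM in basal cells. Muscle and clear markers were instead highest in principal cells of the vas deferens. In the caput, corpus, cauda and vas deferens, the 5 muscle markers summed to 64.4, 95.9, 93.1 and 289 UPM. The 5 clear markers summed to 514, 322, 248 and 616 UPM. Vas deferens muscle cells had 45412 UPM of the former and its clear cells 3484 UPM of the latter. *Ptgs2* is also known as an immediate early gene, and tissue dissociation is known to induce such genes. A list of 31 other immediate early and stress genes summed to 11560 UPM in caput principal cells, 12415 in corpus cells, 7012 in cauda cells and 5612 in vas deferens cells. Of these 31 genes only *Ier3* was highest in the vas deferens, so the list was lowest in the library where *Ptgs2* was highest; the part of dissociation in the level of *Ptgs2* was not tested.

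Within principal cells, the study named 15 populations by number, of which 1 to 11 lie along the epididymis and 12 to 15 are those of the vas deferens. The numbers 12 to 15 are names and give no order along the vas deferens. *Ptgs2* had at most 99.4 UPM in principal 1 to 8, then 359 in principal 9, 949 in principal 10, 1594 in principal 11, 2786 in principal 12, 3523 in principal 13, 2771 in principal 14 and 2235 in principal 15. *Ptges* had at most 14.4 UPM in principal 1 to 5, 207 to 490 in principal 6 to 10, 989 in principal 11 and 1429 to 1820 in principal 12 to 15. The 2 genes thus had their high levels in the same populations, but *Ptges* was already at 211 UPM in principal 6, where *Ptgs2* had 23.5.

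*Ptgr1* was at most 88.4 UPM up to principal 11, and then differed among the vas deferens populations, at 343 UPM in principal 12, 656 in principal 13, 1043 in principal 14 and 1308 in principal 15. *Slco2a1* did not follow the same order, with 204 UPM in principal 11, 643 in principal 12, 728 in principal 13, 674 in principal 14 and 487 in principal 15. Principal 15 thus had the highest *Ptgr1* and the lowest *Slco2a1* and *Ptgs2* of these 4 populations. Their median depth was 2344, 1540, 1474 and 933 UMIs from principal 12 to 15, the reverse of the *Ptgr1* order. The part of depth in these levels was not tested. *Ptgs1* was highest in principal 10 and 11, at 685 and 522 UPM, and had 360 to 453 UPM in principal 12 to 15.

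*Ptgds* was not even along the epididymis. It had 363 UPM in principal 1, 5154 in principal 3, 7877 in principal 6, 11865 in principal 8 and 16394 in principal 10, with lower levels between them, such as 1067 in principal 5 and 4013 in principal 7. In principal 12 to 15 it had at most 15.8 UPM, and no UMI in the 139 cells of principal 14. *Ptges3* was lowest in principal 10, at 31.2 UPM, where *Ptgds* was highest, and had 60.9 to 178 UPM in the other 14 populations.

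**Figure D2:**
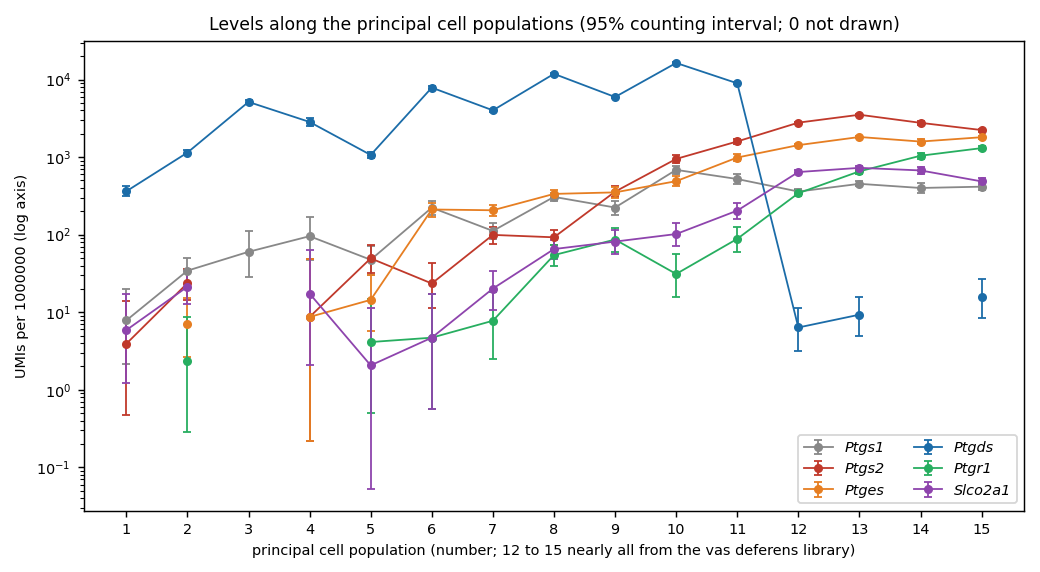
Level of *Ptgs1*, *Ptgs2*, *Ptges*, *Ptgds*, *Ptgr1* and *Slco2a1* along the 15 numbered principal cell populations, in UPM on a log axis, with 95% Poisson intervals for counting error and levels of 0 not drawn. *Ptgds* peaks in principal 10 and is at most 15.8 UPM from principal 12 on, where *Ptgs2* and *Ptges* are at their highest, and *Ptgr1* is highest in principal 15.

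The vas deferens library also held 151 principal cells that carry epididymal names, principal 1 to 11, beside 1209 cells named principal 12 to 15. The 151 cells had 1092 of the 1124 *Ptgds* UMIs of the vas deferens principal cells, at 3964 UPM, against 32 UMIs and 7.26 UPM in the 1209. The 240 UPM given above for *Ptgds* is therefore a mixture, and the level in the populations of the vas deferens proper was lower. Dissection margins were varied between pieces, and the part of this in the 151 cells was not tested.

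Principal 11 allowed the same named population to be compared in 2 libraries, with 141 cauda cells and 100 vas deferens cells. *Ptgs2* had 1101 UPM in the cauda cells and 2796 in the vas deferens cells, a ratio of 2.54 (2.15 to 3.00), and *Ptges* had 511 and 2147, a ratio of 4.20 (3.37 to 5.25). *Slco2a1* was 3.72 times as high in the vas deferens cells (2.28 to 6.15) and *Ptgr1* 3.5 times as high (1.64 to 7.71). *Ptgs1* did not differ beyond counting error, with a ratio of 0.861 (0.611 to 1.20), and *Ptgds* was lower, with 11798 and 2260 UPM and a ratio of 0.192 (0.167 to 0.219). In principal 11, the order of these libraries for the genes other than *Ptgs1* was thus that seen over all principal cells. In principal 9, with 100 cauda and 26 vas deferens cells, the ratio was 1.34 for *Ptgs2* (0.940 to 1.90), 1.49 for *Ptges* (1.05 to 2.12), 2.24 for *Slco2a1* (1.05 to 4.81), 0.608 for *Ptgr1* (0.238 to 1.38) and 0.708 for *Ptgds* (0.645 to 0.777). In principal 10, with 166 cauda and 16 vas deferens cells, it was 1.27 for *Ptgs2* (0.687 to 2.17), 0.341 for *Ptges* (0.0410 to 1.25) and 0.833 for *Slco2a1* (0.0205 to 4.96), *Ptgr1* had 0 UMIs in the vas deferens cells, and *Ptgds* was lower at 0.549 (0.449 to 0.665). The intervals for *Ptgs2* and *Ptgr1* in principal 9, and for *Ptgs2*, *Ptges* and *Slco2a1* in principal 10, include 1.

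To compare shares of cells, each cell was thinned to 1000 UMIs at random and shallower cells were left out, which kept 342 principal cells of the caput, 346 of the corpus, 433 of the cauda and 773 of the vas deferens. *Ptgs2* was found in 0.585%, 2.60%, 21.2% and 63.1% of these cells, in that order. *Ptges* was found in 1.17%, 9.83%, 32.8% and 61.7%. Both genes were thus found in more of the vas deferens cells, besides having a higher level there.

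*Ptgr1* was found in 0 of the 342 caput cells (a count that allows up to 0.877%), in 0 of the 346 corpus cells (up to 0.867%), in 4.62% of the cauda cells and in 45.1% of the vas deferens cells. *Slco2a1* was found in 1.46%, 0.289%, 5.77% and 35.3%, *Ptgs1* in 2.92%, 14.2%, 30.5% and 30.5%, and *Ptgds* in 50%, 71.7%, 94.7% and 4.79%. Without thinning, the vas deferens shares were 51.5% for *Ptgs2*, 53.1% for *Ptges*, 51.5% for *Ptgr1*, 41.8% for *Slco2a1* and 44.5% for *Ptgs1*. Immune cells were taken as the background for *Ptges*, *Ptgr1* and *Slco2a1*, a choice that was not tested. Of 91 thinned immune cells of the vas deferens library (median depth 2368 UMIs), 1.10% had a *Ptges* UMI. The share was 2.20% each for *Ptgr1* and *Slco2a1*. The background depends on the type chosen. Immune cells of this library had 11.9 UPM of *Ptges* and 8.92 of *Slco2a1*, and its clear cells had 467 and 207. For the cyclooxygenases, which immune cells also express, 13.6% of 22 thinned clear cells of that library (median depth 1689 UMIs) had a *Ptgs2* UMI (2.91 to 34.9) and 13.6% a *Ptgs1* UMI. Vas deferens principal cells lay above these backgrounds for *Ptgs2*, *Ptges*, *Ptgr1* and *Slco2a1*, while their *Ptgs1* share lay within the interval of the clear cells, 2.91 to 34.9. In the epididymal libraries the background rests on fewer cells. In the corpus 3.70% of 81 thinned clear cells (median depth 1581 UMIs) had a *Ptgs2* UMI (0.770 to 10.4) and 3.03% of 33 immune cells a *Ptges* UMI (0.0767 to 15.8), so the 2.60% and 9.83% of corpus principal cells were not resolved from background. In the cauda 1.09% of 92 clear cells had a *Ptgs2* UMI (0.0275 to 5.91) and 0 of 26 immune cells one of *Ptges*, *Ptgr1* or *Slco2a1*, which allows up to 11.5%, so the cauda shares of *Ptgr1* and *Slco2a1* were not resolved from background and those of *Ptgs2* and *Ptges* lay above it. For *Ptgs1*, 4.94% of clear cells had a UMI in the corpus (1.36 to 12.2) and 9.78% in the cauda (4.57 to 17.8). The *Ptgs1* shares of principal cells, 14.2% and 30.5%, lay above these intervals. In the caput, with 43 clear and 8 immune cells thinned, no share of *Ptgs1*, *Ptgs2*, *Ptges*, *Ptgr1* or *Slco2a1* was resolved from background.

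**Figure D3:**
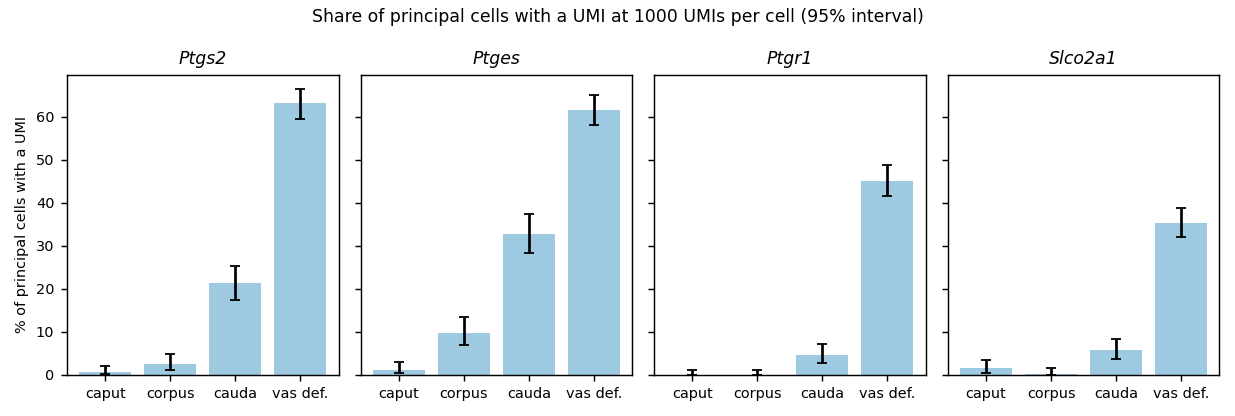
Percent of principal cells with at least 1 UMI of *Ptgs2*, *Ptges*, *Ptgr1* or *Slco2a1*, by library. Cells were thinned to 1000 UMIs each, and the bars carry 95% Clopper-Pearson intervals for counting error. *Ptgs2* and *Ptges* reach 63.1% and 61.7% in the vas deferens, and *Ptgr1* and *Slco2a1* reach 45.1% and 35.3% there.

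Levels differed among the cells of the vas deferens populations. In 718 thinned cells of principal 12 to 15, the median was 2 *Ptgs2* UMIs, with quartiles of 0 and 4 and a highest value of 18. Of these cells 35.7% had none and 22.1% had at least 5. The variance over the mean was 3.75 for *Ptgs2* and 2.38 for *Ptges*, against 1.34 for *Ptgr1*, 1.48 for *Slco2a1*, 1.08 for *Ptgs1* and 1.03 for *Ptges3*, where counting alone gives a value near 1. *Ptgds*, with a UMI in 3 of the 718 cells, had 2.20. The ratio depends on the mean, which was 2.53 UMIs for *Ptgs2*, 1.54 for *Ptges* and 0.565 for *Slco2a1*, so it does not rank the genes by how unevenly they were spread.

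Joint detection was described in the same 718 cells. *Ptgs2* and *Ptges* were both found in 44.8% of cells (41.2 to 48.6), where the product of their shares is 40.9%. *Ptgs2* and *Slco2a1* were both found in 31.1% (27.7 to 34.6), where the product is 23.5%, and *Ptgs1* and *Ptgs2* in 23.5% (20.5 to 26.8), where it is 19.7%. The pairs of *Ptgr1* did not exceed theirs in the same way, with 29.7% against 30.6% beside *Ptgs2*, 31.6% against 30.3% beside *Ptges* and 15.2% (12.6 to 18.0) against 17.4% beside *Slco2a1*. Of *Ptgs2*, *Ptges*, *Ptgr1* and *Slco2a1*, a cell had all 4 in 73 cases (10.2%), 3 in 199, 2 in 241, 1 in 151 and none in 54 (7.52%). The cells come from 4 populations that differ in these genes, so a joint share need not equal the product.

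Over all libraries pooled, *Ptgs2* had 1479 UPM in principal cells and 934 UPM in stromal cells, the next highest type, a ratio of 1.58 (1.54 to 1.63). This order rests on the vas deferens library: without it the ratio was 0.186, and with the libraries weighted equally it was 0.931. The same held for *Slco2a1*, at 323 UPM in principal and 189 in muscle cells, a ratio of 1.71 that was 0.213 without the vas deferens. It held for *Ptges*, at 883 UPM in principal and 280 in basal cells, and for *Ptgr1*, at 336 in principal and 25.6 in muscle cells, whose ratios of 3.16 and 13.1 were 0.708 and 0.696 without the vas deferens, the last against 9 *Ptgr1* UMIs in muscle cells. Over the 3 epididymal libraries pooled, then, principal cells did not have the highest level of *Ptgs2*, *Ptges* or *Slco2a1*. For *Ptgr1* the order was not resolved, at 23.8 UPM in principal cells, 27.1 in stromal cells and 34.2 in muscle cells.

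**Figure D4:**
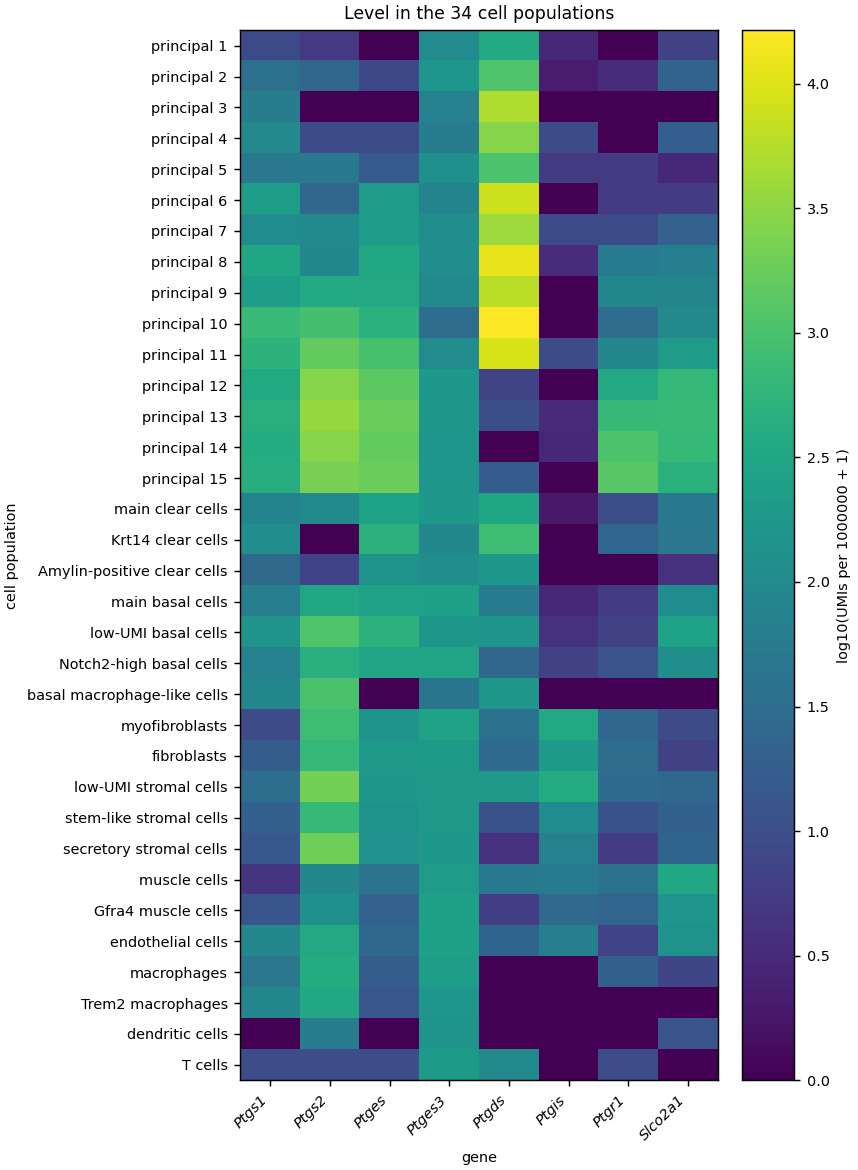
Level of the 8 genes in each annotated population over all libraries, as a color scale of UPM on a log scale. *Ptgs2* is spread over stromal, basal and distal principal populations, *Ptgds* and *Ptgr1* are concentrated in principal cells, and *Ptgis* in stromal cells.

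In stromal cells *Ptgs2* had 844 UPM in caput cells, 1181 in corpus cells, 689 in cauda cells and 884 in vas deferens cells, a narrower range than in principal cells. *Ptgs2* made up 98.2% to 99.3% of the cyclooxygenase UMIs of stromal cells in the 4 libraries. The stromal populations differed, and over all libraries the low-UMI stromal cells had the highest level, at 2160 UPM, followed by the secretory stromal cells at 1898. Within the vas deferens library there were 1905 UPM in the 213 secretory stromal cells, 1178 in the 37 low-UMI stromal cells, 648 in the 517 stem-like stromal cells and 284 in the myofibroblasts. The 182 low-UMI stromal cells of the corpus had 2922 UPM. Myofibroblasts of the caput, corpus and cauda had 797, 1053 and 649 UPM. The immediate early and stress list summed to 40461, 25120, 20237 and 23046 UPM in stromal cells of the caput, corpus, cauda and vas deferens, which is above its sums in principal cells; its part in the stromal *Ptgs2* level was not tested.

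In basal cells *Ptgs2* had 110 UPM in caput cells, 503 in corpus cells, 704 in cauda cells and 263 in vas deferens cells, so the cauda was highest and the vas deferens lay between caput and corpus. The main basal population kept this order, at 91.2, 412, 645 and 236 UPM. The low-UMI basal cells kept it too, at higher levels of 312, 1531, 2788 and 558 UPM. In *Notch2*-high basal cells the intervals of the corpus (540 UPM) and cauda (522) overlapped, and the vas deferens had 376. The immediate early and stress list summed to 31232, 19010, 16248 and 24515 UPM in basal cells of the caput, corpus, cauda and vas deferens. This is the reverse of the *Ptgs2* order over all basal cells, and the part of the list in it was not tested. *Ptges* in basal cells had 113, 311, 345 and 350 UPM in the caput, corpus, cauda and vas deferens, and *Slco2a1* had 61.7, 114, 201 and 144. Basal cells of the cauda thus had higher *Slco2a1* than cauda principal cells (79.3), and vas deferens basal cells had lower *Slco2a1* than vas deferens principal cells (622).

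In endothelial cells *Ptgs2* was lower in the vas deferens, at 114 UPM, than in the caput (473) and corpus (1010), and the cauda held only 12 endothelial cells. Single cells carried much of this, since 1 caput cell held 37 of 67 UMIs and 1 corpus cell held 43 of 166; without these cells the levels were 226 and 777 UPM. The 6 stromal markers summed to 410, 1825 and 257 UPM in endothelial cells of the caput, corpus and vas deferens, with 1 of the 6 at 0 in the caput, and so moved with *Ptgs2*; their part in the result was not tested. *Slco2a1*, which is known in vascular endothelium, had 98.9, 54.8 and 209 UPM in endothelial cells of the caput, corpus and vas deferens. In immune cells *Ptgs2* had 485 UPM in corpus cells, 378 in cauda cells and 161 in vas deferens cells. The immediate early and stress list was likewise lowest in the vas deferens in both types, at 18964 UPM in endothelial and 10242 UPM in immune cells, and its part in the result was not tested.

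Clear cells, the acid-secreting cells of the epithelium, numbered 38 in the vas deferens library. They had 534 UPM of *Ptgs2*, against 3.76, 51.4 and 12.1 UPM in those of the caput, corpus and cauda, but all 80 UMIs lay in 6 cells. The 8 principal markers, none at 0, summed to 13811 UPM in these clear cells, against 5024 to 5652 UPM in clear cells of the epididymal libraries and 89171 UPM in vas deferens principal cells. Principal cell transcripts thus moved with *Ptgs2* in vas deferens clear cells, and their part in the level was not tested.

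Muscle cells were found mainly in the vas deferens library (437 cells), with 58 in the cauda, 7 in the corpus and 0 in the caput. *Slco2a1* had 174 UPM in muscle cells of the cauda and 193 in those of the vas deferens. Within the vas deferens library the population named muscle cells had 328 UPM and the *Gfra4* muscle cells had 157. The principal cell transcript *Akr1b7* was set beside these levels: per *Akr1b7* UMI, muscle cells of this library had 18.3 times as many *Slco2a1* UMIs as its principal cells, and 1.04 times as many *Ptges* UMIs. The part of free RNA in either level was not tested. Vas deferens clear cells had 2.29 times as many *Ptgs2* UMIs per *Akr1b7* UMI as principal cells, and 1.35 times as many *Ptgr1* UMIs.

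*Ptgis* was at its highest in stromal cells, with 277 UPM over all libraries against 64.6 in endothelial cells, a ratio of 4.28 (3.27 to 5.72), and stromal cells held 92.9% of its UMIs. Along the duct it had 491 UPM in stromal cells of the caput, 433 in corpus cells, 237 in cauda cells and 102 in vas deferens cells, the opposite order to that of *Ptgs2* in principal cells, with overlapping intervals for the caput and corpus. After thinning, a *Ptgis* UMI was found in 38.7%, 33.4%, 16.5% and 7.80% of stromal cells. Within myofibroblasts the order was the same, at 503, 443, 256 and 128 UPM. No *Ptgis* UMI was found in immune cells, which allows up to 5.15 UPM.

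*Ptgds* was lowest in the vas deferens outside principal cells too. Clear cells of the caput, corpus and cauda had 158, 403 and 323 UPM. Those of the vas deferens had 0 UMIs, which allows up to 20.03 UPM. Basal cells of the caput, corpus, cauda and vas deferens had 27.6, 80.7, 121 and 5.92 UPM. In the cauda these UMIs lay in 25 of 105 clear cells and 18 of 193 basal cells. In the corpus they lay in 36 of 521 basal cells. Cauda principal cells had 12008 UPM, and the part of principal cell RNA in these levels was not tested. *Ptges3* had between 139 and 257 UPM in every broad type, with basal and endothelial cells level at 257 and 256, and in basal cells of the vas deferens it had 357 UPM against 220 to 236 in the other libraries. *Ptgs1* was highest in principal cells, at 294 UPM over all libraries, and 89.8 in endothelial cells.

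**Figure D5:**
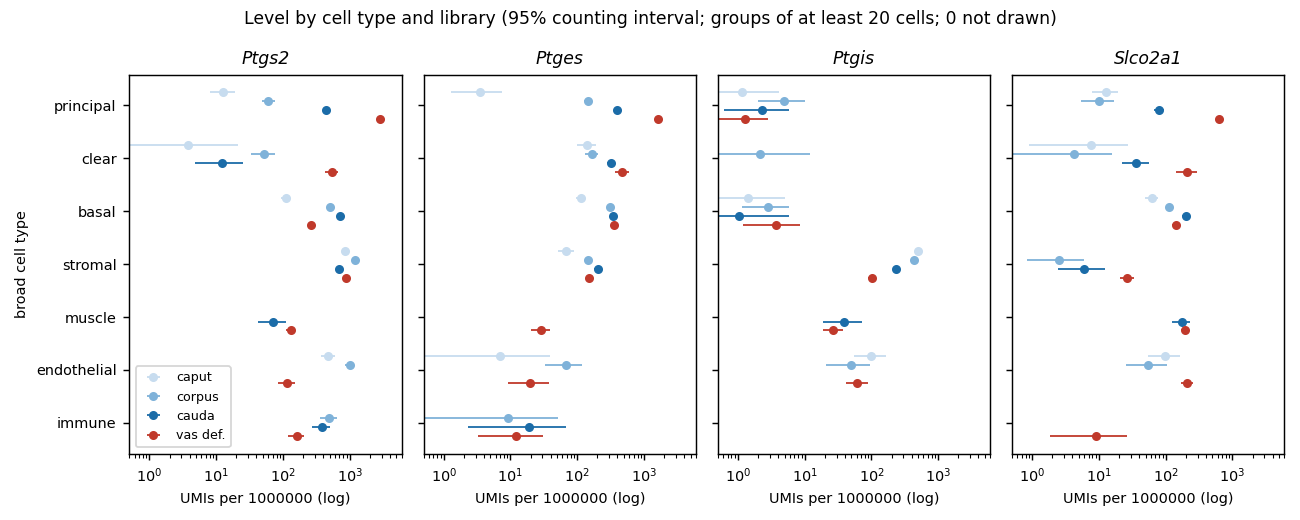
Levels of *Ptgs2*, *Ptges*, *Ptgis* and *Slco2a1* in UPM by broad cell type and library, with 95% Poisson intervals for counting error, for groups of at least 20 cells. *Ptgs2* is high in stromal cells of every library and in principal cells of the vas deferens, and *Ptgis* in stromal cells is highest in the caput.

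The rest of the pathway was followed in a list of 53 further genes for arachidonic acid release, synthesis, transport, inactivation and reception, of which 47 are in the matrix. Of the 23 with enough UMIs in principal cells, 6 were restricted to a library: 3 to the vas deferens, 2 to the caput, 1 to the corpus and 0 to the cauda. Counting the library of the highest level alone, 12 of the 23 were highest in the vas deferens, 5 each in the caput and corpus and 1 in the cauda, and over all genes 35.8% were highest in the vas deferens. Among the genes of synthesis 8 of 11 were highest there. Of these 8 only *Akr1b7* was restricted to the vas deferens, and some did not differ from the next library beyond counting error. Over the 23 genes the median ratio of the vas deferens to the highest epididymal library was 1.12, against 0.805 over all genes.

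Upstream of the cyclooxygenases, *Pla2g4a*, the cytosolic phospholipase that frees arachidonic acid, had 15.1 UPM in caput principal cells, 3.52 in corpus cells, 47.7 in cauda cells and 214 in vas deferens cells. Its ratio of vas deferens to cauda was 4.49 (3.59 to 5.69), and 3.70 with median-of-ratios factors, which is below the threshold of 4. *Mgll*, a lipase that can also yield arachidonic acid, had 77.7, 250, 102 and 479 UPM and was 1.92 times the corpus level (1.71 to 2.15). *Akr1b7*, an aldo-keto reductase with prostaglandin F synthase activity, had 4.06, 31.0, 432 and 51317 UPM, a ratio of 119 (111 to 128), and is also one of the principal cell markers. Among the vas deferens populations, *Akr1b7* had 32958 UPM in principal 12, 49736 in principal 13, 70894 in principal 14 and 96185 in principal 15, which ranks them as *Ptgr1* does. This order too is the reverse of that of their median depth.

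Downstream, *Hpgd*, the dehydrogenase that starts prostaglandin inactivation and makes the substrate of *Ptgr1*, had 6.96, 55.0, 135 and 871 UPM in principal cells, a ratio of 6.45 (5.65 to 7.39). *Hpgd* also had 578 UPM in muscle cells of the vas deferens. With median-of-ratios factors the ratio was 5.32 for *Hpgd* and 97.9 for *Akr1b7*, both still above 4. Among transporters apart from *Slco2a1*, *Abcc4*, which exports prostaglandins, was restricted to the caput at 23.2 UPM (40 UMIs) and had 0 UMIs in vas deferens principal cells, which allows up to 0.641 UPM. The other restricted genes were *Pla2g4f* in the caput, at 12.2 UPM (21 UMIs), and *Akr1c18* in the corpus, at 32.4 UPM and 4.47 times the vas deferens.

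Receptor transcripts were scarce in principal cells. *Ptger4*, a receptor for prostaglandin E, had the highest receptor level in vas deferens principal cells, at 10.5 UPM, and had 11.6, 45.8 and 27.6 UPM in caput, corpus and cauda principal cells. Over all libraries it had 121 UPM in basal cells, 73.9 in immune cells, 52.0 in clear cells and 19.0 in principal cells. The epithelial cells with the highest *Ptger4* were thus the basal cells rather than the cells with the highest *Ptges*. *Slco3a1* had the highest level among the listed transporters apart from *Slco2a1* in vas deferens principal cells, with 5 UMIs.

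The genes with the most similar course to each member were found by Pearson's r of log2(UPM + 10) over 57 combinations of population and library, among 9280 genes. The points share libraries and populations, so the values are a description. *Ptgis* was most like *Rarres2* (0.959) and *Fstl1*, and *Ptgds* was most like *Ces5a* (0.930), *Wfdc6a* and *Prom2*. *Ptgr1* was most like *Elf5* (0.844), *Crygb* and *Gsta2*, and *Ptges3* was most like *Eif1* (0.828), *Cfl1* and *Arpc2*. *Ptgs2* was most like *Serping1* (0.823), *Azin1* and *Fas*, *Ptges* like *Pi4k2b* (0.799), *Lrrc8e* and *Ppap2c*, *Ptgs1* like *Ces1d* (0.787), *Frk* and *Wfdc15b*, and *Slco2a1* like *Gpr126* (0.753), *Fxyd4* and *Ccnd1*. No member was among the 3 genes most like another, and between members the values reached 0.667 for *Ptgs2* and *Ptges* and -0.763 for *Ptges3* and *Ptgds*.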

How the data were processed

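The authors made the 4 libraries with 10x 3′ chemistry. Per the labels and the study's methods, they aligned reads to mm10 with HISAT2 2.0.4, counted UMIs on RefSeq genes with ESAT, leaving out reads that map to several places, merged UMIs that differ at 1 base, kept cells within limits of total UMIs, and subtracted ambient RNA with a modified SoupX. The deposited values are whole UMI counts per gene and cell after that subtraction, which took 2.80% to 4.48% of the UMIs of a library. A deposited table gives each cell's library and population, used here without re-clustering. Whether counting used strand is not given in the sources used here. *Ptges* overlaps a processed pseudogene on its own strand, and *Slco2a1* overlaps genes on both strands. *Ptgs1* and *Ptgis* overlap genes on the other strand, so the UMIs of these 4 genes may be shared. *Ptges3* has 1 named pseudogene, and the part of left-out reads in its level was not tested. UMIs are 3′ tags and were not scaled by length.

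Counts were summed over cells and divided by the UMIs of the group (UPM). Intervals are 95% and exact: Poisson intervals for levels, Clopper-Pearson intervals for shares and binomial ones, conditional on the summed UMIs, for ratios. UMIs cluster in few cells, so these cover counting error only and not cells, animals or dissections. A count of 0 was given a floor of 3 UMIs. No test and no p-value was possible with 1 library per region. Doublets were kept. The number called, 178 cells (2.00%), was set in advance by an assumed rate that rises with the cells of a library. It is therefore not a measured rate. Cells were ranked by their likeness to simulated doublets, of which only 31.9% to 53.9% were recovered. Per-sample columns left unused numbered 0.

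The members, the gene lists and the alternatives were chosen with earlier results of these data known. Genes named beyond the members are pathway genes restricted to a library or highest of their step in vas deferens principal cells, the 3 genes most like each member, of which 1 is not reported here, and the listed markers; *Ier3* was named after its values were seen, as were the splits of principal cells within the vas deferens library and the values per *Akr1b7* UMI. Alternatives covered cell depth, means over cells or libraries, scaling, doublets, thresholds, thinning and libraries left out. Promoter sequences are from RefSeq for 7 of the 8 genes. Bulk RNA-Seq was not analysed here. The work was done in Python 3.11.15 with matplotlib 3.10.9, pandas 2.3.3, numpy 2.4.6, scikit-learn 1.9.0 and scipy 1.17.1.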

Additional observations from a re-analysis of the deposited data

Results flagged for a closer look

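For *Ptgs2* and *Ptgr1*, the vas deferens library stood above every epididymal library in some cell types and below every one in others, with counting intervals apart, where libraries with fewer than 20 cells of a type were left out. These were the 12 endothelial cells of the cauda, at 134 UPM of *Ptgs2* (64.2 to 246), and the 11 immune cells of the caput, at 359 UPM (179 to 643); the first of these intervals overlaps that of the vas deferens (85.4 to 150), and the second overlaps its 121 to 210. The difference between cell types was not tested, since each region is 1 library. *Ptgs2* was above in principal cells (2834 UPM) and in clear cells (534 UPM, from 6 cells), and below in endothelial cells (114 UPM) and in immune cells (161 UPM). *Ptgr1* was above in principal cells (662 UPM) and in clear cells (73.4 UPM, 11 UMIs), and below in stromal cells (9.17 UPM), where the caput, corpus and cauda had 28.7, 30.0 and 21.3 UPM. Per *Akr1b7* UMI, vas deferens clear cells had 1.35 times as many *Ptgr1* UMIs as principal cells. The part of principal cell RNA in this level was not tested. Beside the endothelial and immune values, the immediate early and stress genes summed to 18964 UPM in vas deferens endothelial cells, against 31661 in the caput and 28689 in the corpus, and to 10242 UPM in vas deferens immune cells, against 17581 in the corpus and 13727 in the cauda; their part in the result was not tested.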

How the results depend on the processing

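No paired analysis was possible because each region has 1 library. Every ratio of the vas deferens to the highest epididymal library kept its side of 1, except that of *Ptgs1*, which is level at 1.004. With median-of-ratios factors it was 0.827 for *Ptgs1*, 5.29 for *Ptgs2*, 3.36 for *Ptges*, 0.0165 for *Ptgds*, 8.87 for *Ptgr1* and 6.46 for *Slco2a1*. Without the 52 most abundant genes in the denominator it was 0.841 for *Ptgs1*, 5.37 for *Ptgs2*, 3.41 for *Ptges*, 0.0168 for *Ptgds* and 6.57 for *Slco2a1*. As means over cells it was 5.01 for *Ptgs2*, 3.73 for *Ptges* and 0.0327 for *Ptgds*, and *Ptgds* was 0.0186 in cells of at least 1000 UMIs and 0.0170 without called doublets. The other 32 such values, 8 of them an alternative added after seeing the data (cells of shared barcodes left out), moved by less than the counting interval.

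The ratio of the highest broad type to the next depended on how libraries were pooled. As means over cells it was 0.679 for *Ptgs2*, 1.77 for *Ptges*, 7.26 for *Ptgds* and 0.724 for *Slco2a1*; with libraries weighted equally it was 2.56 for *Ptgs1*, 0.931 for *Ptgs2*, 1.93 for *Ptges*, 20.05 for *Ptgds*, 6.15 for *Ptgr1* and 0.986 for *Slco2a1*; and in cells of at least 1000 UMIs it was 1.80 for *Ptgs2* and 3.41 for *Ptges*. With each library left out in turn the ratio ran from 1.76 to 4.21 for *Ptgs1*, 0.186 to 2.09 for *Ptgs2*, 0.708 to 3.70 for *Ptges*, 0.882 to 1.05 for *Ptges3*, 4.57 to 18.7 for *Ptgds*, 0.696 to 16.8 for *Ptgr1*, 3.05 to 5.67 for *Ptgis* and 0.213 to 2.07 for *Slco2a1*; the lowest value came without the vas deferens library, except for *Ptgds* (without the cauda) and *Ptgis* (without the corpus). The cause was not tested.

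Of the 8 members, 4 were restricted to the vas deferens, 1 with a fold of 8 and 3 to 5 under the other settings. Of the other pathway genes 6 were restricted, 10 with a fold of 2, 2 with a fold of 8 and 3 with a minimum of 50 UMIs. With median-of-ratios factors, an alternative added for single genes after seeing the data, *Pla2g4a* was at 3.70, below the threshold, and the other 5 restricted genes kept a ratio above 4, from 4.11 to 97.9. Of the shares of vas deferens principal cells, 27 of 48 values under other thinning or thresholds moved beyond their interval.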

Other observations

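Some pathway genes outside the rule for naming genes stood apart by cell type and were picked with their values in view. *Hpgds*, the hematopoietic synthase of prostaglandin D, had 160 UPM in immune cells, and *Tbxas1*, the thromboxane synthase, had 20.6 UPM there. *Slco1a5*, an organic anion transporter, had 229 UPM in clear cells, which also had 39.7 UPM of *Abcc4*. *Slco4a1*, of the same transporter family, had 139 UPM in basal cells, and *Ptgfrn*, a negative regulator of the prostaglandin F receptor, had 213 UPM in muscle cells. *Ptgir*, the prostacyclin receptor, had 8.79 UPM in stromal cells, the type with the highest *Ptgis*. Of the 30 pathway genes with at least 20 UMIs in a type, 13 were highest in principal cells, 4 in clear, 4 in basal, 3 each in stromal, muscle and immune cells and 0 in endothelial cells.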
